A study of Mus musculus with 6 samples.

Results

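Mitochondrial ribosomal protein genes were examined in cells given as C2C12. C2C12 is an established mouse line that grows as single myoblasts and, on differentiation, fuses into multinucleated myotubes. Members were all probe sets of the HG-U133A array with a single annotated gene symbol that starts with MRPL or MRPS followed by a digit, and each gene was read from its brightest probe set by the mean over all arrays. Genes were thus chosen by name, and the probe set of each was chosen by its measured mean signal. The family itself was proposed with earlier results of this comparison known, so its values are given as a description and its counts beside those of all genes. The rule found 51 genes among 11963 with a single symbol, 31 with an MRPL symbol (large subunit) and 20 with an MRPS symbol (small subunit). They had 64 probe sets on the array, 41 genes with 1 probe set and 10 with several.

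The series holds total RNA labelled with biotin and hybridised to 6 arrays, 3 of myoblasts (growing cells) and 3 of myotubes (differentiated cells). Myotubes were cultured with 2.5% horse serum, and for the myoblasts no medium is given. No time of differentiation, passage or clone is stated. The series text speaks of 2 samples and 6 replicates, without stating whether a group's arrays had cultures of their own. The p-values therefore rest on the spread between arrays, possibly a technical one. The array was designed against human transcripts while the organism is given as mouse, and from which species the RNA came remained unsettled. RPS4Y1, a gene of the human Y chromosome, gave means of 23707 ± 2260 in myoblasts and 30485 ± 776 in myotubes (SD, n = 3). The species was not tested from these values. If the RNA was from mouse, a low signal can reflect a human probe that pairs poorly with a mouse transcript, and levels of different genes are not compared. Gene names are those of the human genes.

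Mitochondria carry their own ribosome, which translates the few respiratory chain subunits encoded in mitochondrial DNA. Its ribosomal RNAs are mitochondrial, while all of its proteins are encoded in the nucleus, made in the cytosol and imported. Some of these proteins descend from bacterial ribosomal proteins and keep their numbering, and others have no bacterial counterpart. The small subunit reads the messenger RNA at the decoding centre, and the large subunit forms the peptide bond. Muscle fibres rely heavily on respiration, and the supply of mitochondrial ribosomes is one of the inputs to respiratory chain assembly.

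Many nuclear genes of mitochondria carry sites for the factors NRF1 and GABP. The promoters shown are those of the 3 genes that fell and held a match to either motif, so they were picked for the match. The sequences are the 150 bases before the RefSeq transcript start in the mouse build GRCm38.p6, 5′ to 3′ on the gene's strand. Capitals mark matches, on either strand, to the NRF1 motif (GCGCA, any base, then GCGC) or the ETS family motif CCGGAAG that GABP recognises.
Mrpl3, chr9:105053118-105053267 (+ strand): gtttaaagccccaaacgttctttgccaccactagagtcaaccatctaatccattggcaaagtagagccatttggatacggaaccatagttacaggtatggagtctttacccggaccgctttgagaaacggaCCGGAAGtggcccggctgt
Mrpl9, chr3:94443186-94443335 (+ strand): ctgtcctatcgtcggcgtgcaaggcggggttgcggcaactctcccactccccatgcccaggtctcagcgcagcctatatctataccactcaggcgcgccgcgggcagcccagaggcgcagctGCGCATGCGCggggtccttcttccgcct
Mrpl57, chr14:57826089-57826238 (+ strand): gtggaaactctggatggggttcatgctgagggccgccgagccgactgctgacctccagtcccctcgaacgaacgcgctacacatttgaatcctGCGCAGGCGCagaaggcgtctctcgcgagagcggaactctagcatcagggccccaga
The match begins 19 bases before the start in Mrpl3, 28 in Mrpl9 and 57 in Mrpl57. In the 250 bases before the start, the NRF1 motif was present in 6 of 44 members with a listed promoter (13.6%) against 4.23% of 27025 genes, and the ETS motif in 13 of 44 (29.5%) against 7.83%. The motifs share no sequence, and 18 of 44 members (40.9%) held at least 1 of them, beside 11.3% of the 27025 genes. Among members that fell, 3 of 9 with a listed promoter held a motif, and among tested members that did not pass, 14 of 33. By motif these counts were 1 of 9 and 11 of 33 for ETS, and 2 of 9 and 4 of 33 for NRF1. These matches are a description of letters in the window, and no binding was measured.

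Most mitochondrial ribosomal protein genes had lower signals in myotubes, by a modest amount. Of 49 members bright enough to be tested, 11 fell, 0 rose and 38 did not pass at a limma adjusted p under 0.05. This is 22.4% called lower, beside 6.73% of all 8161 tested genes, and 0% called higher, beside 5.39% (12.1% in either direction). At an unadjusted limma p under 0.05, 20 members were lower, beside 15.2% of all tested genes, and 0 higher, beside 16.4%. A gene that did not pass may still differ. The test was applied to log2(signal + 197), so a fold change understates the change of a dim gene, and p-values were adjusted over all 13329 tested probe sets. The 11 were the large subunit genes MRPL35, MRPL19, MRPL3, MRPL42, MRPL20, MRPL9, MRPL15 and MRPL57 and the small subunit genes MRPS31, MRPS12 and MRPS17, with falls from 1.59-fold to 3.17-fold. The median log2 change was -0.38 over the 49 members and 0.12 over all tested genes. In all, 37 of the 49 changes (75.5%) were below 0, beside 43.5% of all tested genes. As bulk RNA was measured, fewer cells of a type and less RNA per cell cannot be told apart.

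The count of 11 depends on which arrays enter. Across tested probe sets, which are not independent replicates, Pearson's r was 0.988 between myoblast arrays 2 and 3 and 0.872 to 0.889 in the remaining pairs of the same group. Myoblast array 1 had r of 0.872 and 0.881 with myoblast arrays 2 and 3, and 0.843, 0.841 and 0.881 with myotube arrays 1, 2 and 3. For myoblast arrays 2 and 3 against the myotube arrays r was 0.737 to 0.876. With myoblast arrays 2 and 3 averaged as 1 sample, MRPL3 was the 1 member called, beside 2.51% of all tested genes called lower. The run records give a laboratory code number for each array, and arrays with equal or consecutive numbers were taken as 1 series. This inferred grouping put myoblast array 1 with the 3 myotube arrays, and myoblast arrays 2 and 3 in another series. With the series as a block, a gene's change is therefore the mean of the myotube arrays minus myoblast array 1 alone. With this series as a block MRPL3 alone fell and 0 members rose, beside 1.16% of all tested genes called lower and 1.63% called higher, and the next lowest limma adjusted p among members was 0.157. In that fit 39 of 49 changes were below 0, beside 50.2% of all tested genes, and the median was -0.41 for the members and -0.00156 for all genes. Without myoblast array 2, myoblast array 3 or myotube array 2 the count was 1 each, where 2.6%, 2.35% and 2.24% of all tested genes were called lower. It was 4 without myotube array 1 (all genes 2.88%), 10 without myotube array 3 (7.83%) and 16 without myoblast array 1 (12.5%). Without myoblast array 1 no series held both groups, so group and series cannot be told apart there. In the fits with 1 call, the members' share was thus near that of all genes. Scan day and chip lot each differed between the groups, so neither can be told apart from group.

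**Figure D1:**
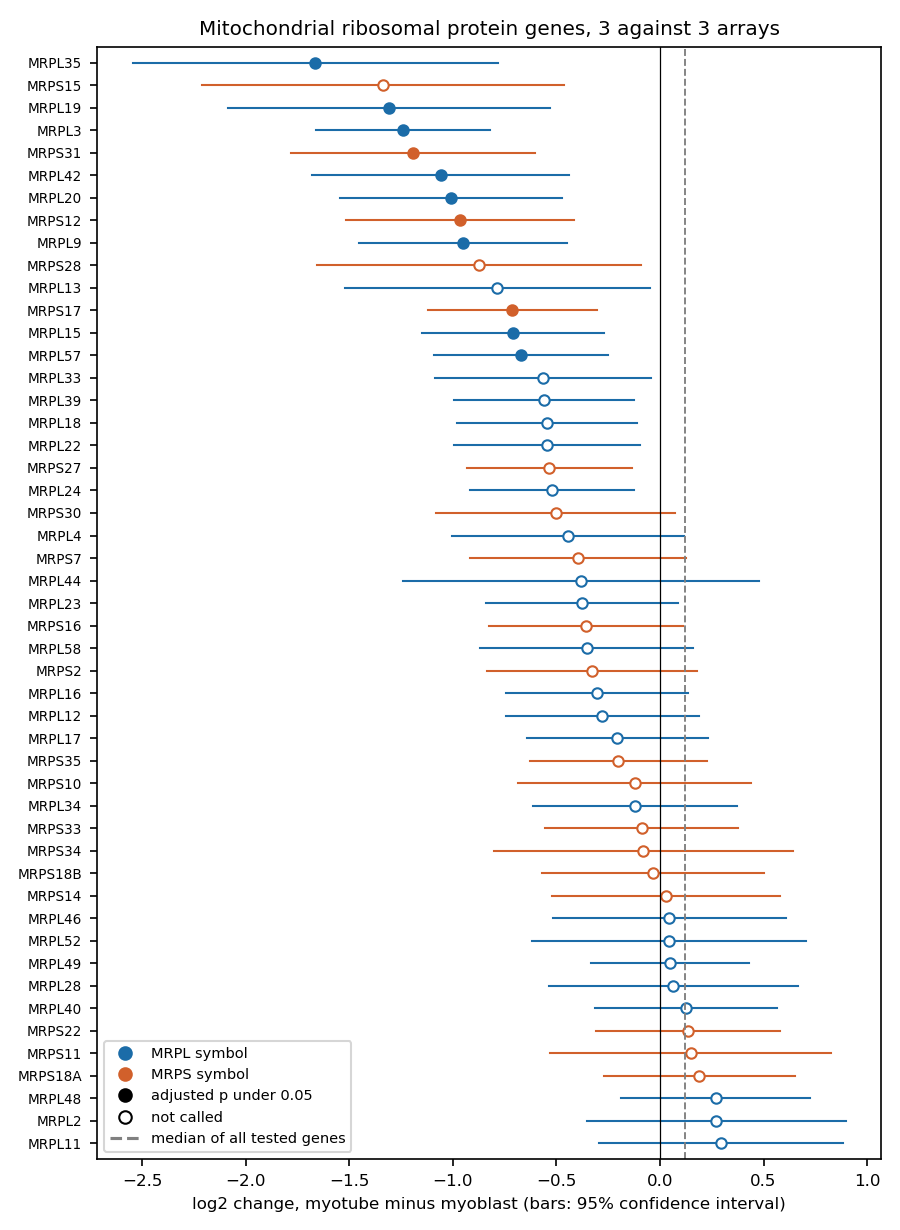
Log2 change of each tested gene, myotube minus myoblast, with its 95% confidence interval from limma, for 49 genes in order of size. Filled points are the 11 genes with an adjusted p under 0.05, all left of 0, and the dashed line is the median of all tested genes at 0.12.

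MRPL3 gave the smallest p of the family. Its protein is the large subunit counterpart of bacterial L3, which reaches towards the peptidyl transferase centre. The signals were 13001, 12942 and 12715 in myoblasts 1, 2 and 3 and 4208, 5818 and 6194 in myotubes 1, 2 and 3. The 3 myoblast values lay within a narrow range, and all myotube values were below them. The mean went from 12886 ± 151 to 5407 ± 1055 (SD, n = 3), a log2 change of -1.24 ± 0.19 (SE) with a limma adjusted p of 0.00385. With the series as a block the change was -1.25 ± 0.25 with a limma adjusted p of 0.04. That blocked change is the one against myoblast array 1 alone. The limma adjusted p of MRPL3 ranged from 0.00374 to 0.0236 when single arrays were left out.

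Among the other large subunit genes with a bacterial homolog, MRPL35 had the largest change. Its signals were 1640.5, 2426 and 2423 in myoblasts and 188, 787 and 851 in myotubes, a log2 change of -1.66 ± 0.40. The groups did not overlap, but on myotube arrays 1 and 2 the value did not exceed the brightest control probe set without a spiked target, so it was not told from background there. MRPL19 gave 1315, 1593 and 1656 in myoblasts and 823, 259 and 513 in myotubes (-1.31 ± 0.35). Its values on myotube arrays 2 and 3 were likewise at or below the control level. These genes encode counterparts of bacterial L35 and L19.

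MRPL20, counterpart of a bacterial protein that helps fold the large ribosomal RNA, gave 3572, 4133 and 5961 in myoblasts and 1944, 1787 and 2707 in myotubes (log2 change -1.01 ± 0.24). MRPL9 gave 3252, 4386 and 4136 in myoblasts and 1856, 1523 and 2486 in myotubes (-0.95 ± 0.23). MRPL15 gave 5195, 6362 and 6569.8 in myoblasts and 2908, 3743 and 4275 in myotubes (-0.71 ± 0.20). In each of these genes all 3 myotube values lay below all 3 myoblast values, and myoblast array 1 was the lowest of its group. Their limma adjusted p-values were 0.025, 0.0247 and 0.0448.

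MRPL42 and MRPL57 encode large subunit proteins with no bacterial counterpart. MRPL42 gave 3065, 4956 and 4897 in myoblasts and 1444, 1681 and 2877 in myotubes (log2 change -1.06 ± 0.28). The highest myotube value was close to myoblast array 1, and the change was -0.62 against that array alone and -1.28 against myoblast arrays 2 and 3. MRPL57 gave 6586, 7644 and 7773 in myoblasts and 3663, 5295 and 4759 in myotubes (-0.67 ± 0.19, limma adjusted p = 0.047), the highest adjusted p of the 11. Its call was lost when any array other than myoblast array 1 was left out.

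In the small subunit, MRPS12 encodes the counterpart of bacterial S12, a protein of the decoding centre. Its signals were 5839, 5617 and 6213 in myoblasts and 1945, 3022 and 4179 in myotubes, a log2 change of -0.97 ± 0.25 that was -0.96 against myoblast array 1 and -0.97 against arrays 2 and 3. MRPS31, a protein with no bacterial counterpart, gave 1894, 2287 and 2137 in myoblasts and 1029, 582 and 869 in myotubes (-1.19 ± 0.27). Its value on myotube array 2 was at or below the control level. MRPS17, counterpart of an early binding protein of the small subunit, gave 3189, 3659 and 3520.0 in myoblasts and 2054, 1957 and 2072 in myotubes (-0.71 ± 0.18). The 3 myotube values of MRPS17 lay close together and well below the lowest myoblast value. The limma adjusted p-values of MRPS12, MRPS31 and MRPS17 were 0.0337, 0.0197 and 0.034.

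Apart from MRPL3, each of the 11 calls was lost when 1 of 3 to 5 arrays was left out. Myoblast arrays 2 and 3 and myotube array 2 were among those arrays for all 10, with limma adjusted p-values up to 0.0944 for MRPL35, 0.113 for MRPS31, 0.109 for MRPS12, 0.118 for MRPL9, 0.179 for MRPL19, 0.19 for MRPS17 and 0.199 for MRPL15. The corresponding upper values were 0.14 for MRPL20, 0.14 for MRPL42 and 0.198 for MRPL57. Their changes kept the same sign in all 21 other settings tried. With the mean of all probe sets of a gene in place of the brightest, 4 of the 11 lost their call and shrank by over 1.5 times: MRPL20 to -0.45, MRPS12 to -0.35, MRPL57 to -0.25 and MRPS31 to -0.69 (limma adjusted p = 0.238, 0.368, 0.389 and 0.118). That mean took in probe sets too dim to test. They were 1 of MRPL20, with all 6 values at or below the control level, and 2 of MRPS12, with mean signals of 347 and 319.

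**Figure D2:**
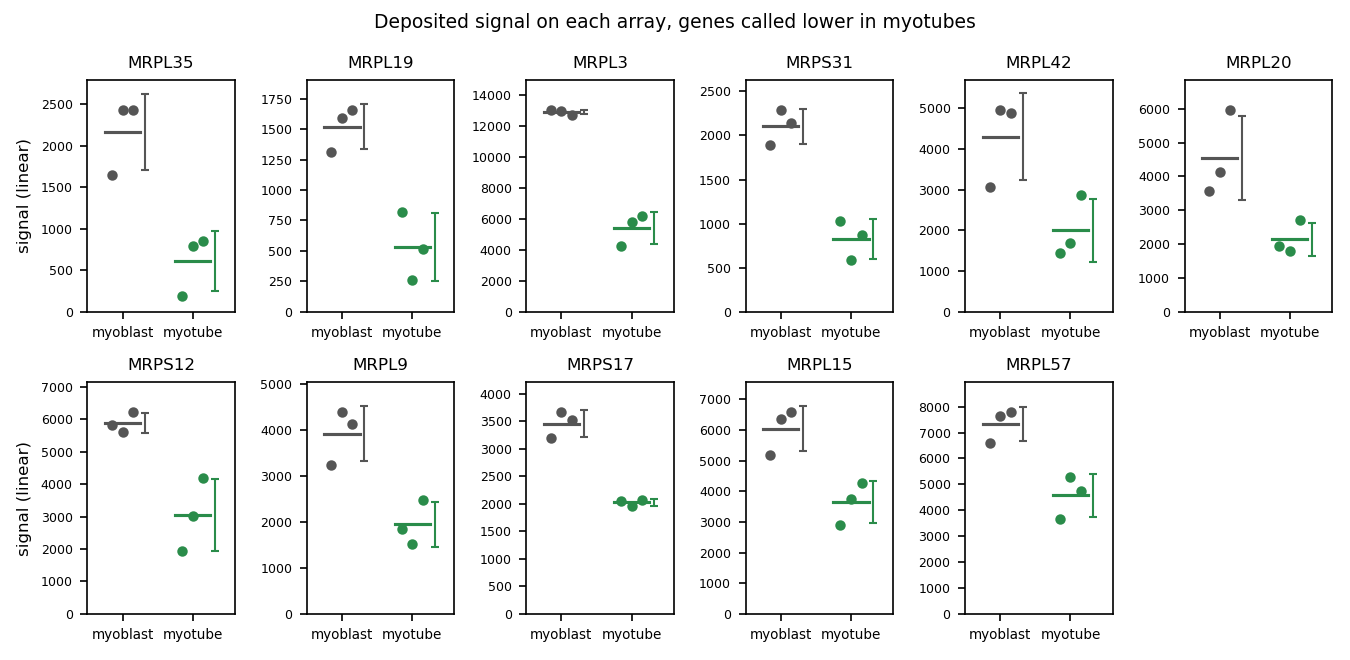
Deposited signal (linear) of the 11 genes called lower in myotubes, 1 panel per gene, in order of size of change. Points are the arrays 1, 2 and 3 of each group, horizontal lines the group means and bars the SD. In every panel the 3 myotube points lie below the 3 myoblast points.

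Of the 38 members that did not pass, 10 also had all myotube values below all myoblast values. Together with the 11 called genes this made 21 of 49 (42.9%), beside 16.3% of all tested genes, and 1 member, MRPL48, had all myotube values above, beside 18.5% of all tested genes. MRPS15 had the largest change among the 38, with 1733, 3214 and 3224 in myoblasts and 399, 1272 and 1404 in myotubes (log2 change -1.34 ± 0.39, limma adjusted p = 0.0545). Its myoblast array 1 lay nearer to the myotubes than to the other myoblast arrays, and it was called lower in 5 of 21 other settings. MRPS27, a pentatricopeptide repeat protein of the small subunit, gave 3372, 4006 and 3758 against 2451, 2516 and 2526 (-0.53 ± 0.18, limma adjusted p = 0.0801). MRPL24 and MRPL39 had changes of -0.52 ± 0.18 and -0.56 ± 0.20 with limma adjusted p-values of 0.0855 and 0.0896. Without myoblast array 1 these 4 genes were called lower. In that fit no laboratory series held both groups, so group and series cannot be told apart.

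In 12 members the change was above 0, with log2 changes from 0.03 to 0.29, and 0 of them passed. MRPL11, counterpart of a protein of the GTPase stalk base, gave 2843, 2452 and 2579 in myoblasts and 2099, 4700 and 3475 in myotubes (0.29 ± 0.27, limma adjusted p = 0.472). The myotube values lay on both sides of the myoblast range. MRPL48, a protein of the central protuberance, gave 2285, 2054 and 1738.5 against 2747, 2339 and 2335 (0.27 ± 0.21, limma adjusted p = 0.393). MRPS22, a small subunit protein with no bacterial counterpart, gave 5006, 3569 and 3539 against 4817, 4646 and 3799 (0.14 ± 0.20), and its change was -0.18 with the series as a block.

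MRPL49, a large subunit protein with no bacterial counterpart, had the narrowest interval of change among tested members. Its signals were 5097, 5813 and 5735 in myoblasts and 5645, 6467 and 5163 in myotubes, a log2 change of 0.05 with a 95% confidence interval from -0.33 to 0.43. The groups overlapped. MRPS35 gave 5929, 5419 and 4807 against 5759, 4091 and 4233 (-0.20 ± 0.19), also overlapping. MRPL12, which also binds the mitochondrial RNA polymerase, gave 2945, 2413 and 3411 against 2461, 2018 and 2619 (-0.28 ± 0.21, limma adjusted p = 0.385). MRPL58, a peptidyl-tRNA hydrolase that rescues stalled ribosomes, gave 1743, 1679 and 1731 against 1388, 1093 and 1449 (-0.35 ± 0.23, limma adjusted p = 0.32). The remaining members that did not pass ranged from -0.87 for MRPS28 to 0.27 for MRPL2.

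MRPL41 and MRPS18C were too dim to test, with means below the 40th percentile of all probe sets. MRPL41 gave 182, 60.7 and 52.0 in myoblasts and 198, 1243 and 170 in myotubes, so 1 array alone was high. MRPS18C gave 550, 181 and 123 against 106, 59.6 and 126. All 6 of its values, and 5 of the 6 of MRPL41, did not exceed that control level. Of the 49 tested members, 9 had at least 1 such value.

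Both subunits had medians below 0. Of 30 tested large subunit genes 8 fell (26.7%), with a median log2 change of -0.41 and quartiles of -0.70 and 0.0043. Of 19 tested small subunit genes 3 fell (15.8%), with a median of -0.33 and quartiles of -0.62 and -0.057. With the series as a block the medians were -0.42 and -0.41. The mean log2 level of the large subunit genes minus that of the small subunit genes was 0.129, 0.124 and 0.212 in myoblasts 1 to 3, and it was 0.059, 0.105 and 0.0977 in myotubes 1 to 3. The groups did not overlap on this scale, but the means of 0.155 ± 0.0496 and 0.0873 ± 0.0248 (SD, n = 3) were separated by little more than the spread of the myoblast arrays. No test was made of this difference, because the members were chosen with earlier results known.

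MRPS30 and MRPS18A carry small subunit names, while structures of the mammalian mitochondrial ribosome place both proteins in the large subunit. MRPS30 gave 1381, 1809 and 1924 in myoblasts and 1074, 940.4 and 1435 in myotubes (log2 change -0.50 ± 0.26), and MRPS18A gave 2265, 2268 and 2076 against 2840.1, 2801 and 2057 (0.19 ± 0.21). Neither passed. With both counted in the large subunit the medians stayed at -0.41 and -0.33. Split by origin, 8 of 32 tested members with a bacterial homolog fell (median -0.42), as did 3 of 17 without one (median -0.20). With the series as a block those medians were -0.51 and -0.34.

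**Figure D3:**
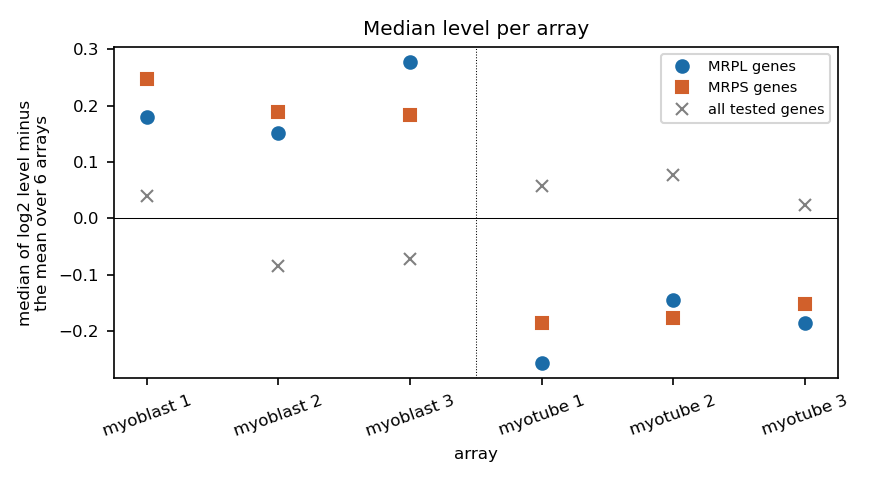
Median over genes of the log2 level on each array minus the gene's mean over 6 arrays, for 30 large subunit genes, 19 small subunit genes and all tested genes. Both subunits lie between 0.151 and 0.278 on the myoblast arrays and between -0.257 and -0.145 on the myotube arrays, while the medians of all genes lie between -0.0849 and 0.0771.

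The lower level was seen on each myotube array. Relative to their own means, the 49 members had median log2 deviations of 0.193, 0.173 and 0.267 in myoblasts 1 to 3. The corresponding deviations in myotubes 1 to 3 were -0.251, -0.147 and -0.175. The lowest of a member's 6 values fell on a myotube array for 40 of 49 members (81.6%), beside 47.7% of all tested genes. Myotube array 1 held the lowest value of 18 members, array 2 of 14 and array 3 of 8. The highest value fell on a myoblast array for 38 of 49 (77.6%), beside 41.8% of all tested genes.

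Changes against the 2 kinds of myoblast array were set side by side, and these comparisons share the 3 myotube arrays. The change against myoblast array 1 is the same quantity as the change with the series as a block, not a separate result. Against myoblast array 1 alone 39 of 49 members were lower, with a median of -0.41 (all genes -0.00156), and against myoblast arrays 2 and 3 37 of 49 were lower, with a median of -0.34 (all genes 0.153). Both changes were below 0 for 32 members, all 11 called genes among them, and for 31.4% of all tested genes. MRPL13 showed the widest gap. Its signals were 1392, 3417 and 3764 in myoblasts and 1323, 1384 and 1654 in myotubes, so the change was 0.05 against array 1 and -1.20 against arrays 2 and 3. MRPS14 gave 2467, 4649.9 and 4789 against 3655, 3931 and 4089.6, with changes of 0.62 and -0.27. For these 2 genes myoblast array 1 stood apart from the other myoblast arrays.

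**Figure D4:**
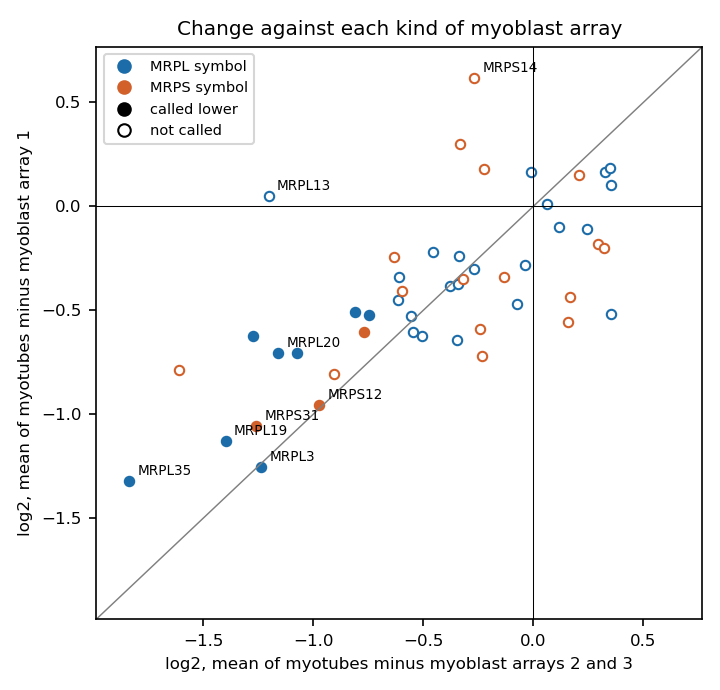
Log2 change of 49 genes, mean of the 3 myotube arrays minus myoblast arrays 2 and 3 (horizontal) or minus myoblast array 1 (vertical), with the diagonal of equal change. The axes share the myotube arrays. The 11 called genes, filled, lie in the lower left, MRPL3 nearly on the diagonal, and MRPL13 and MRPS14 lie far above it.

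The change varied with brightness over all genes, and members were brighter than most, with a median brightness percentile of 68.2 among tested genes. In the brightest 20% of tested genes the median log2 change of all genes was -0.135 and that of the 11 members in it was -0.52. In the next 20% these were -0.0239 and, for 22 members, -0.37, and in the middle 20% 0.101 and, for 13 members, -0.35. The shares of all genes called lower in these bins were 15.5%, 9.31% and 4.6%, beside 4 of 11, 4 of 22 and 2 of 13 members. After quantile normalization the median of the members was -0.37 and that of all genes 0.038, and 8 of the 11 genes remained called.

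For 5 members tested probe sets of the same gene differed in call or direction. The second probe set of MRPS31 had a change of -0.18 ± 0.36 and the second of MRPL9 one of -0.73 ± 0.32, neither called. The other 2 of MRPL57 had -0.40 ± 0.28 and 0.31 ± 0.36. The second tested probe set of MRPS12 gave 451, 304 and 453 in myoblasts and 977, 679 and 501 in myotubes (0.59 ± 0.38), but 4 of these 6 values did not exceed the unspiked control level of their array, so its direction could not be read. The second of MRPS30 had a change of 0.70 ± 0.46. In each of these 5 genes the brightest probe set had the lowest fitted change. MRPS18B, whose tested probe sets shared sign and call, went the other way. Its brightest had -0.03 ± 0.24 and its second -1.55 ± 0.51 (limma adjusted p = 0.0756), with 4 of 6 values of the second not above the control level.

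Other lists of the mitochondrial translation system were read from the same fit, and no gene on them was called higher, beside 5.39% of all tested genes. DAP3, a GTP-binding small subunit protein without an MRPS symbol, fell 4.46-fold, from 3272 ± 1147 to 669 ± 596 (SD, n = 3; limma adjusted p = 0.0156), while the series block gave a log2 change of -1.53 (adjusted p = 0.245, not called). Of the other such proteins, PTCD3 and GADD45GIP1 had changes of -0.25 ± 0.24 and -0.55 ± 0.54. Of 5 tested translation factors 0 passed in limma (median -0.083). At an unadjusted limma p under 0.05, 1 was lower and 0 higher, beside 15.2% and 16.4% of all tested genes. Of 13 tested genes of mitochondrial tRNA synthetases and the amidotransferase (GATC, QRSL1) 1 fell (7.69%). This was KARS1, which also serves the cytosol (1.98-fold), and the list median was 0.25. Of 18 assembly and RNA modification genes 2 fell (11.1%), LRPPRC (2.46-fold) and SLIRP (2.08-fold), partners that stabilise mitochondrial messenger RNA. Of 12 genes of mitochondrial transcription and DNA maintenance 1 fell (8.33%), the single-stranded DNA binding protein SSBP1 (1.76-fold), with a list median of -0.41. These shares stand beside 6.73% of all tested genes called lower, and each rests on 1 or 2 genes. In the transcription and DNA maintenance list, 5 of 12 were lower and 1 higher at an unadjusted limma p under 0.05. These counts were 2 and 3 of 13 in the synthetase list and 3 and 1 of 18 in the assembly list. All myotube values lay below all myoblast values for 50% of the transcription list, 42.9% of members and 16.3% of all tested genes. Under the series block the calls of KARS1, LRPPRC, SLIRP and SSBP1 were lost (limma adjusted p = 0.19, 0.207, 0.111 and 0.409).

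Of 24 genes of import and chaperones 4 fell (16.7%, beside 6.73% of all tested genes, median -0.20). They were HSPE1 (2.76-fold) and HSPD1 (2.09-fold), the chaperonin pair of the mitochondrial matrix, and the import genes TOMM22 (2.71-fold) and TOMM34 (1.73-fold). HSPE1 and HSPD1 were also called with the series as a block (limma adjusted p = 0.0325 and 0.0251), and TOMM22 and TOMM34 were not (0.17 and 0.108). Of 64 respiratory chain and ATP synthase subunits 4 fell (median -0.17), among them ATP5PB, COX5A and NDUFA6. This share of 6.25% is near the 6.73% of all tested genes, and under the series block 0 of the 64 were called, the 4 having limma adjusted p-values from 0.144 to 0.25. The respiratory chain list was bright, with a median brightness percentile of 91.5. Of all tested genes between brightness percentiles 80 and 100, 15.5% were called lower, a larger share than in this list. Of the 64, 14 were lower and 4 higher at an unadjusted limma p under 0.05, beside 15.2% and 16.4% of all tested genes. Changes below 0 made up 65.6% of the 64, beside 43.5% of all tested genes. Of 57 cytosolic ribosomal protein genes 0 passed in either direction, with a median of 0.56 that was -0.12 with the series as a block. At an unadjusted limma p under 0.05, 1 of the 57 was lower and 7 were higher, both smaller shares than the 15.2% and 16.4% of all tested genes. The member median kept its sign between those fits and that of the cytosolic ribosome did not. The difference between these lists was not tested.

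**Figure D5:**
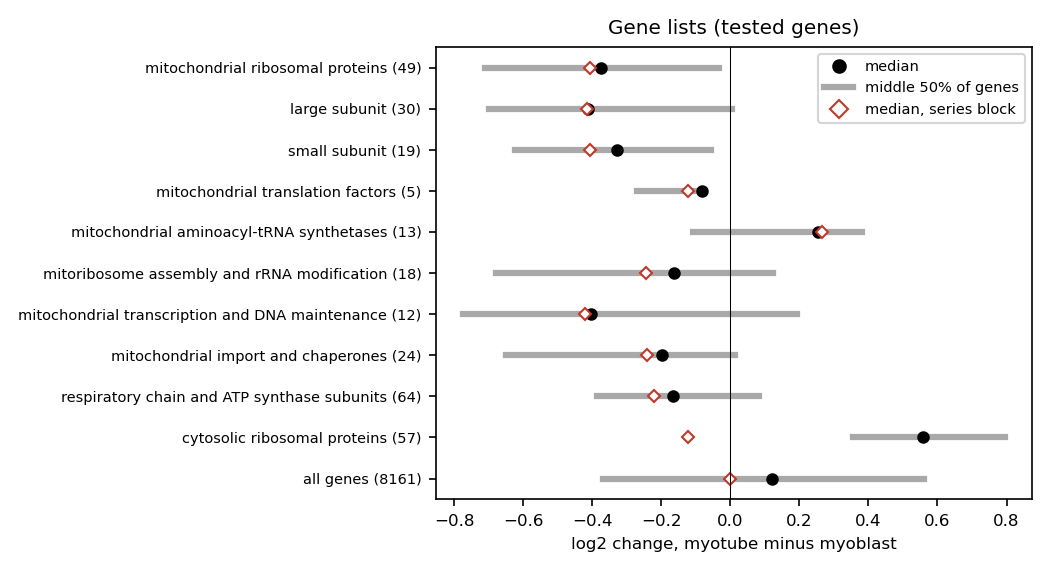
Median log2 change (filled points), middle 50% of genes (bars) and median with the laboratory series as a block (diamonds) for each list, with the number of tested genes in parentheses. The mitochondrial ribosomal proteins have a median of -0.38, the respiratory chain one of -0.17 and all genes one of 0.12. The cytosolic ribosomal proteins move from 0.56 to -0.12 with the block.

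Markers of the labelled stages moved with the groups. Of 12 tested genes of differentiated muscle 11 rose, DES did not pass, and the summed signal of the 14 on the array was 3801 to 12752 on myoblast arrays and 45397 to 54111 on myotube arrays. MYOG and CKM were too dim to test. Of 10 genes of dividing cells 8 fell, and their summed signal went from 39004 to 44123 down to 8736 to 11823. Of 8 fibroblast markers 8 rose, with sums of 76736 to 154103 and 285457 to 400620.0, none of them at 0. Under the series block 8 of the 12 muscle genes and 5 of the 8 fibroblast markers were called higher, and 5 of the 10 genes of dividing cells lower. The part of cell division or of other cell types in the falls of the mitochondrial ribosomal protein genes was not tested. Signals of the spiked-in control transcripts differed between arrays, with geometric means from 3539 to 48119 over the myoblasts and from 12320 to 71439 over the myotubes. With their log2 mean as a covariate, MRPL3 and MRPS31 were called lower and the member median was -0.35.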

How the data were processed

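RNA of 3 myoblast and 3 myotube arrays was measured on HG-U133A. The authors deposited an intensity per probe set, the MAS5 signal per the submitters' processing notes on a linear scale (MAS5 version: not given in the sources used here). The trimmed mean, without the 2 percent tails, was alike on all arrays (1499.73 to 1499.78), and no detection calls were used. Groups came from titles, and for myoblast array 3 from its description, which names only the first 2 myoblast arrays. The run records number the myoblast arrays differently from the titles, which were used. Chip lot, scan day and laboratory code came from the same records, and the laboratory series were inferred from gaps between the code numbers.

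Of 22283 probe sets 68 controls were left out. GEO's platform annotation lists 1 symbol for 19065 of those kept, several for 1043 and no symbol for 2107. Values were log2(signal + 197), 197 being the 25th percentile of the table, and the 13329 probe sets whose mean reached the 40th percentile entered the test. This was limma 3.58.1 in R 4.3.3, a two-sided moderated test (eBayes, trend), with Benjamini-Hochberg adjustment over all of them and a threshold of 0.05, and random blocks used statmod 1.5.0. An exact permutation test of 3 against 3 arrays cannot go below p = 0.1 and was not used. The fit was tested on simulated data, where it estimated the changes without bias and called most changes of the larger size tried and none of the smaller. The simulated noise was independent between arrays, and fewer probe sets were changed than were called here. Its call rates therefore need not hold for these data. The highest unspiked control signal (251.5 to 1040.2 per array) is the level below which values were not told from background. Precision is limited by having 3 arrays a group.

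The members, lists and alternatives were chosen with earlier results of these data known. Members named were the called ones, per subunit the 3 brightest and the 2 of smallest p in each direction that did not pass, those whose probe sets differed, MRPS30 and MRPS18A. MRPL2, MRPL12, MRPL13, MRPL41, MRPL58, MRPS14, MRPS18B, MRPS18C and MRPS28 were named after their values were seen. Correlations of deviations between same-numbered arrays were 0.25, -0.184 and 0.38 by the titles, and -0.224, -0.144 and -0.442 by the run record numbers. With 3 arrays a group these values cannot show whether the numbers pair the arrays, and the test did not pair them. Figures were drawn with matplotlib 3.10.9.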

Additional observations from a re-analysis of the deposited data

How the results depend on the processing

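Of the 21 other settings, the count of 11 genes called lower stayed within 1.5 times in 11, and 0 genes were called higher in any. With the share of all genes called lower in parentheses, it was 2 with eBayes without trend (3.42%), 1 with the laboratory series as a block (1.16%), 1 with chip lot as a random block (1.85%, no lot held both groups) and 1 with myoblast arrays 2 and 3 averaged (2.51%). Of those added after seeing the data, it was 2 with the spike-in level as a covariate (4.48%) and 1 with the run record numbers as a replicate block (2.41%). With the title numbers as a replicate block it was 12 (9.78%). Leaving out single arrays gave 1 to 16. MRPL3 was called in all 21 settings (log2 -1.35 to -1.08). The large subunit median was -0.52 with a pseudocount of 16, -0.48 with the 60th percentile filter and -0.35 with the spike-in covariate, and -0.50 to -0.39 without single arrays. The small subunit median was -0.36 with a pseudocount of 16, -0.28 with 500, -0.37 after 75th percentile scaling and -0.41 with the series block, and -0.35 to -0.25 without single arrays. The series block moved the median of all genes by -0.1216 and the 60th percentile filter by -0.1035. With the series block 8 of the 49 changes turned sign, 0 of them in a called gene. The other settings were followed for the members named by the rule, where signs turned in MRPL49 (-0.036 to 0.12 over arrays left out, below 0 without myoblast array 1 or myotube array 2), MRPS22 (-0.18 with the series block, -0.096 with the spike-in covariate) and MRPS30 (0.099 with the mean of its probe sets). The causes were not tested. No pseudogene or antisense symbol met the rule, so that alternative changed nothing.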
